A study of Mus musculus with 27 samples.

Results

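The genes described here are 7 transcription factors of the haemangioblast and of early endothelium: Etv2, Tal1, Lmo2, Fli1, Gata2, Erg and Runx1. They were taken by the gene symbols of the array platform, and all 7 were among the 13297 genes tested, of 18194 with a symbol before the filter on low values. Each was represented by its probe set of highest mean over the 27 arrays, with the others as a check. For Erg that set failed the filter, and the set that passed it was used. The haemangioblast is the mesodermal precursor from which the first blood and vessel cells of the embryo and of embryoid bodies arise. Etv2, an Ets factor, is known as a brief inducer of this fate. Tal1, Lmo2 and Gata2 act together in one DNA-bound complex, the Ets factors Fli1 and Erg maintain endothelial and blood genes, and Runx1 is required for definitive blood formation.

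RNA was measured in embryoid bodies grown from AB2.2 mouse embryonic stem cells, all transduced with a lentivirus carrying green fluorescent protein and sorted on its fluorescence. In the Sox17 shRNA arm the vector also carried a short hairpin RNA against Sox17, an endoderm factor, and in the control arm one against firefly luciferase. Both arms were sampled on 7 days of differentiation from day 0 to day 10 (also days 2, 4, 5, 6 and 8), with transfer from hanging drops to plates after 4.5 days. Each group held 2 biological replicates by the labels except the Sox17 shRNA arm at day 0, which had 1 array because the other replicate failed. All cultures came from 1 cell line, and no array of untransduced cells was analysed here. The RNA is of whole cultures, so fewer cells of a type and less RNA per cell cannot be told apart.

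Values are log2 intensities after RMA normalization, and array medians lay between 5.50 and 5.56. A gene was called changed where limma's Benjamini-Hochberg adjusted p over all genes tested was below 0.05. Sox17 itself rose in the control arm from 3.75 and 3.92 (day 0) to 10.3 and 10.7 at day 4. It was 3.02 lower in the Sox17 shRNA arm at day 4 (log2; SE 0.80, limma adjusted p = 0.0377), where replicates read 5.53 and 9.39, and 3.03 lower at day 10 (adjusted p = 0.0205). Its difference was not called at days 0, 2, 5, 6 and 8, and was -0.60 at day 6 (adjusted p = 0.835). The bioB hybridization control, an RNA added before hybridization, read 9.26 to 9.71 on every array of days 0 and 2 and on replicate 1 of day 4 in both arms, and at most 8.11 on all others. Sox17 shRNA replicate 2 of days 4 and 6 had a high 3' to 5' difference for actin, a sign of RNA quality (0.86 and 0.75, against at most 0.55 elsewhere). Summed markers of pluripotent cells were highest at day 0 in both arms, at 15.1 to 15.4 on the log2 scale, and at most 12.1 from day 6 on. Of 12 such markers, 4 were called higher and 0 lower in the Sox17 shRNA arm on each of days 4 and 5. Of all genes, 5.14% and 9.39% were called on these days. The summed level at day 5 was 12.2 to 13.4 in the Sox17 shRNA arm against 11.5 in the control arm.

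Over days 4 to 10, the mean difference between arms was called for 2 factors, Tal1 and Gata2, and for 27% of all genes tested. Both factors were higher in the Sox17 shRNA arm. For each, the 250 bases before the outermost of 2 annotated starts are therefore shown, from RefSeq on GRCm38.p6; the other start lies inside the gene. Tal1 lies on chromosome 4 from 115056426 to 115071755, plus strand, and the window, outside the annotated span of the gene, is chr4:115056176-115056425. Gata2 lies on chromosome 6 from 88193891 to 88207032, plus strand, with its window at chr6:88193641-88193890. Capitals mark the Ets core GGAA and the Gata motif GATAA, searched on both strands.
Tal1: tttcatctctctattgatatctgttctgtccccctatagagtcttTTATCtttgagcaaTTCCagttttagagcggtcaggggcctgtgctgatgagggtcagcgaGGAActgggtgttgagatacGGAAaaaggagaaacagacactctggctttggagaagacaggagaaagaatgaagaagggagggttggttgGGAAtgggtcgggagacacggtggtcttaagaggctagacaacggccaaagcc
Gata2: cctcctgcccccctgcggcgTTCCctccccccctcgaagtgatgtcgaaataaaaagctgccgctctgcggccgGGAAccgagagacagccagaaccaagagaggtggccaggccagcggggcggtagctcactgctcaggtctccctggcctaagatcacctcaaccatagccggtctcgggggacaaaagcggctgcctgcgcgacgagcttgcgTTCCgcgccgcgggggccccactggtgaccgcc
The printed Tal1 window held 4 Ets cores and 1 Gata motif, and the Gata2 window 3 Ets cores and 0 Gata motifs, with no overlap between the motifs. The windows of the inner starts held 3 Ets cores for Tal1 and 1 for Gata2, and 0 Gata motifs. Of 32851 promoter windows of this length, 93.4% held GGAA and 22.6% held GATAA on either strand, so an Ets core marks nearly all of them. Neither window matched the Sox motif AACAAT, which 9.42% of windows held. No window is given for Lmo2 and Fli1.

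By the probe sets used, the course in control embryoid bodies ran from Etv2 and Lmo2 at day 2 to all but Runx1 by day 6. Against day 0, day 2 gave 2 of the 7 factors called (32.1% of all genes tested were called) and day 4 gave 2 (46.1%). Day 5 gave 5 factors (57.4%) and day 6 gave 6 (63.1%). Erg, among those at day 6, passed the filter only through arrays of that day. Later, day 8 had 5 (72.2%) and day 10 had 4 (71.5%). All of these were higher than at day 0 except Runx1 at day 5. With shares this large among all genes, the counts alone set the factors apart at no day. The median over all genes lay 0.11 to 0.14 below day 0 from day 5 on (log2), a shift that is small beside the changes named.

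**Figure D1:**
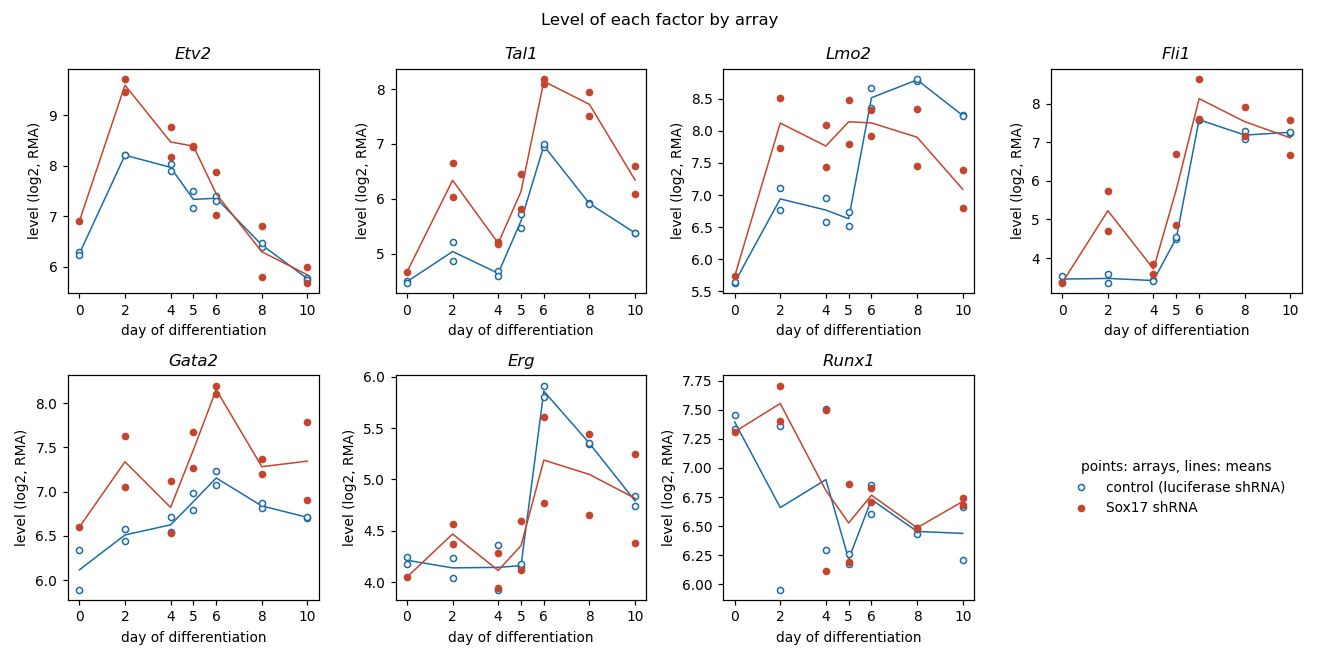
Level of each factor (log2, RMA) against day of differentiation, with 1 point per array, open for the control arm and filled for the Sox17 shRNA arm, and lines through the group means. Tal1 lay higher in the Sox17 shRNA arm on every day from day 2 on, while Lmo2 changed from higher to lower after day 5.

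Etv2 rose at the first step, as did Lmo2. Control replicates read 6.29 and 6.22 (day 0), 8.21 and 8.21 (day 2), 7.90 and 8.04 (day 4), 7.16 and 7.50 (day 5), 7.40 and 7.31 (day 6), 6.39 and 6.47 (day 8), and 5.78 and 5.74 (day 10). The level was thus highest at day 2 and fell back to that of day 0 or below by day 10. The rise to day 2 was 1.96 (SE 0.28, limma adjusted p = 2.67e-05), and the fall from day 6 to day 8 was -0.93 (adjusted p = 0.0451), a call lost without any 1 of the 4 arrays (adjusted p 0.171 to 0.206). The calls at days 5 and 6 against day 0 were lost with a term for arrays of high bioB signal (adjusted p = 0.152 and 0.133). Within arrays of high bioB signal, day 4 replicate 1 still lay 1.65 above day 0.

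Lmo2, a LIM-only bridging protein that binds no DNA itself, rose in 2 stages. Control levels were 5.64 and 5.64 (day 0), 7.11 and 6.77 (day 2), 6.57 and 6.96 (day 4), 6.74 and 6.52 (day 5), 8.67 and 8.36 (day 6), 8.77 and 8.81 (day 8), and 8.25 and 8.23 (day 10). From day 2 to day 5 each group overlapped the next, and all arrays of day 6 and later lay above them. The step to day 2 was 1.30 (SE 0.31, adjusted p = 0.00359) and the step from day 5 to day 6 was 1.88 (adjusted p = 4.78e-04, limma). Day 4 against day 0 (1.13, adjusted p = 0.0066) lost its call without replicate 2 of control day 4 (adjusted p = 0.0725), and day 5 (0.99, adjusted p = 0.0119) without replicate 1 of control day 5 (0.0752) or with the bioB term (0.41).

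Tal1, a basic helix-loop-helix factor, peaked at day 6. Its control replicates read 4.51 and 4.47 (day 0), 4.86 and 5.22 (day 2), 4.68 and 4.60 (day 4), 5.47 and 5.72 (day 5), 6.94 and 7.0 (day 6), 5.92 and 5.90 (day 8), and 5.38 and 5.37 (day 10). It rose by 0.96 from day 4 to day 5 (limma adjusted p = 0.0113) and by 1.37 from day 5 to day 6 (adjusted p = 3.61e-04), then changed by -1.05 to day 8 (adjusted p = 0.00614). The first of these steps lost its call without replicate 1 of control day 4 (adjusted p = 0.0721) or either array of day 5 (0.0614 and 0.084), and the last without replicate 2 of day 6 (0.0656) or of day 8 (0.072). At day 6 it stood 2.48 above day 0 (SE 0.22, adjusted p = 3.04e-08).

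Gata2, a zinc-finger factor of blood stem cells and progenitors, had the smallest difference from day 0 of the 6 factors called at control day 6. Control levels were 5.89 and 6.34 (day 0), 6.44 and 6.58 (day 2), 6.54 and 6.71 (day 4), 6.79 and 6.98 (day 5), 7.23 and 7.08 (day 6), 6.81 and 6.87 (day 8), and 6.70 and 6.72 (day 10). Against day 0 it was 1.04 higher at day 6 (SE 0.25, adjusted p = 0.00159, limma). The calls at days 5, 6, 8 and 10 were all lost with the bioB term (adjusted p 0.126 to 0.618), and its second probe set differed from day 0 by only 0.25 at day 6 (adjusted p = 0.422). Those at days 5, 8 and 10 were also lost without replicate 1 of control day 0 (adjusted p = 0.144, 0.155 and 0.291). At days 5 and 8 the calls were lost without replicate 2 of the later day as well (0.0868 and 0.0652). At day 10 they were lost without either later array (0.108 and 0.116), and with array medians subtracted (0.0509).

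The Ets factors Fli1 and Erg rose late and steeply. Fli1 in the control arm read 3.38 and 3.53 (day 0), 3.36 and 3.58 (day 2), 3.42 and 3.42 (day 4), 4.49 and 4.55 (day 5), 7.59 and 7.58 (day 6), 7.28 and 7.09 (day 8), and 7.25 and 7.27 (day 10). It was flat to day 4 and had its largest step from day 5 to day 6, of 3.07 (SE 0.46, limma adjusted p = 1.73e-04). Its second probe set gave 1.38 for that step (adjusted p = 0.00215). At day 6 the level was 4.13 above day 0, a fold of 17.5, and within arrays of low bioB signal day 6 lay 4.17 above day 4 replicate 2.

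Erg was read by 2 probe sets that did not move together. The set of highest mean (1425370_a_at) stayed between 4.85 and 5.35 on all arrays and exceeded the median of all values, 5.53, on 0 of 27. The set used (1440244_at) exceeded it on 3 arrays, and read 4.25 and 4.18 in control cells at day 0, 4.04 and 4.24 (day 2), 4.36 and 3.93 (day 4), 4.15 and 4.17 (day 5), 5.81 and 5.91 (day 6), 5.35 and 5.36 (day 8), and 4.74 and 4.84 (day 10). The 3 arrays over the median were all of day 6: both control arrays and Sox17 shRNA replicate 1. The set thus passed the filter only through the day on which it was high. The control rise from day 5 to day 6 was 1.70 (SE 0.29, limma adjusted p = 6.12e-04), and is a description for that reason. With no filter, which brings in the first set, that step was 0.15 (adjusted p = 0.572), so the rise of Erg rests on 1 dim probe set.

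**Figure D2:**
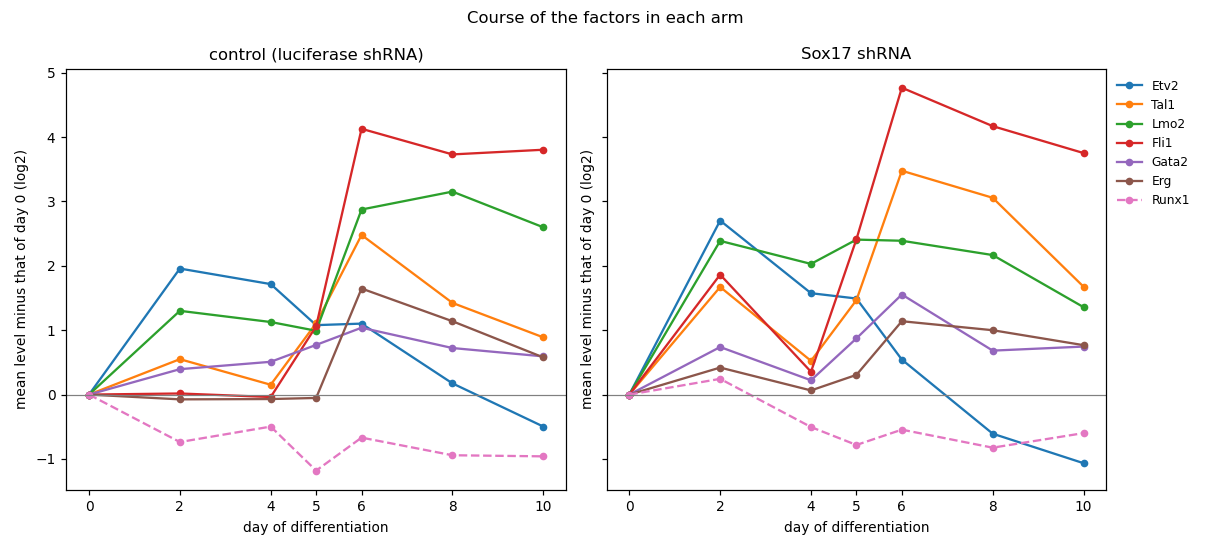
Group mean of each factor minus its own day 0 mean (log2) against day, in the control arm (left) and the Sox17 shRNA arm (right), with Runx1 dashed. Etv2 and Lmo2 stood 1.96 and 1.30 above day 0 at day 2 in the control arm, and Fli1 reached 4.13 at day 6.

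Runx1 was covered by 6 probe sets in disagreement. The set of highest mean (1452530_a_at) read 7.34 and 7.46 (day 0), 7.36 and 5.95 (day 2), 7.51 and 6.29 (day 4), 6.17 and 6.26 (day 5), 6.60 and 6.85 (day 6), 6.43 and 6.48 (day 8), and 6.67 and 6.21 (day 10). Of the arrays with high bioB signal, all but control day 2 replicate 2 lay at 7.31 or above over both arms, and all other arrays lay at 6.86 or below. The call of a lower level at day 5 (-1.18, limma adjusted p = 0.0255) was lost without any 1 of the 4 arrays (adjusted p 0.0691 to 0.101), and the difference became 0.12 with the bioB term. Within arrays of low bioB signal, control day 5 differed from day 4 replicate 2 by -0.08.

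The sets 1422864_at, 1422865_at and 1440878_at showed Runx1 higher late instead. They exceeded the overall median only on arrays of days 6, 8 and 10, and 1440878_at only on Sox17 shRNA replicate 2. They thus passed the filter through late arrays alone, and their late calls are descriptions. For 1422864_at, control replicates read 4.05 and 4.04 (day 0), 4.01 and 4.00 (day 2), 4.25 and 4.41 (day 4), 4.18 and 4.07 (day 5), 4.83 and 4.89 (day 6), 6.37 and 6.17 (day 8), and 5.77 and 5.46 (day 10). Day 8 was 2.23 above day 0 for this set (limma adjusted p = 2.23e-05), 1.79 for 1422865_at (0.00121) and 1.06 for 1440878_at (0.0179). For 1422864_at day 6 was also called above day 0 (0.82, adjusted p = 0.0495). A step from day 6 to day 8 of 1.41 was called for it as well (adjusted p = 0.0169). The other sets, 1427650_a_at and 1452531_at, were not higher at day 8 than at day 0, and the latter was 0.31 lower (log2 -0.31, adjusted p = 0.0299).

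**Figure D3:**
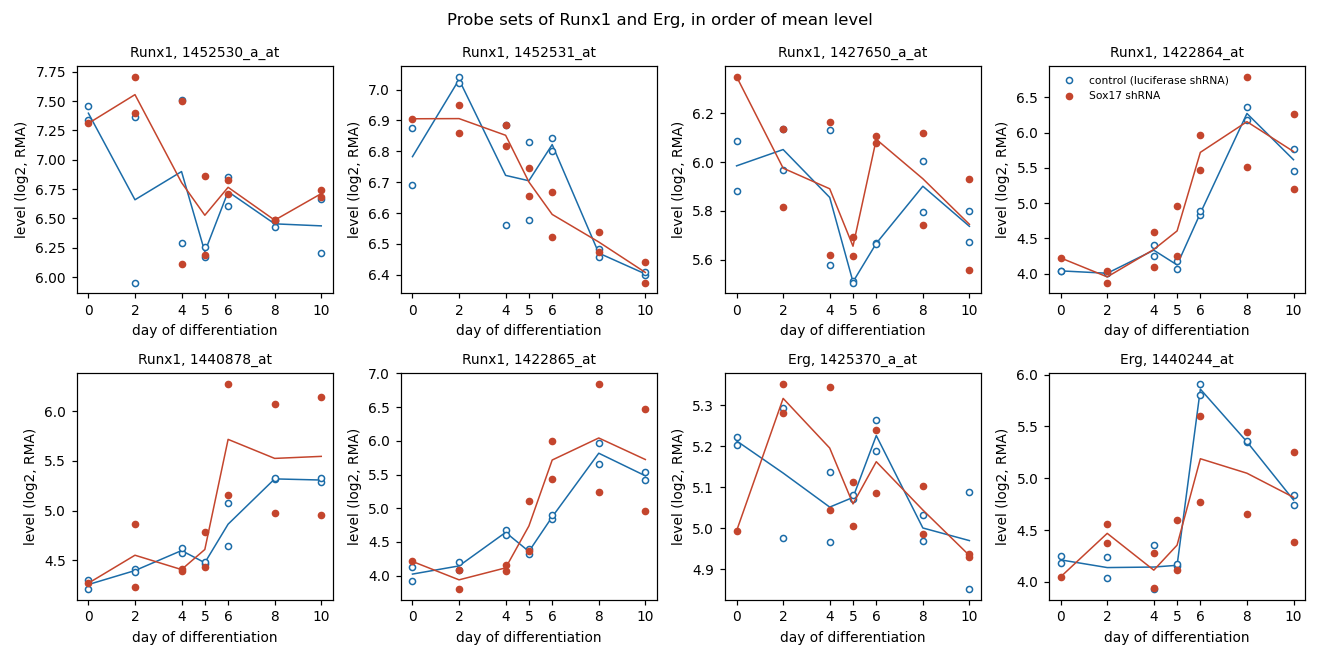
Level (log2, RMA) against day for the 6 probe sets of Runx1 and the 2 of Erg, in order of mean level for each gene, with 1 point per array (open control, filled Sox17 shRNA) and lines through group means. The sets 1422864_at, 1422865_at and 1440878_at of Runx1 end above their day 0 level and 1452530_a_at ends below it, and 1 of the Erg sets is flat between 4.85 and 5.35.

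Step by step, the control arm had 0 factors called from day 2 to day 4 (32.5% of genes called; 0 factors at an unadjusted p below 0.05), 1 from day 4 to day 5, which was Tal1 (10.2%), and 4 from day 5 to day 6 (17.9%). Those 4 were Tal1, Lmo2, Fli1 and Erg, all higher, and Erg passed the filter only through arrays of day 6. From day 6 to day 8, 2 factors fell, Etv2 and Tal1 (8.33%). From day 8 to day 10, limma called 0 (0.353%), with 2 at an unadjusted p below 0.05.

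In the Sox17 shRNA arm 4 factors rose from day 0 to day 2 (16.4% of genes called): Etv2 by 2.70, Lmo2 by 2.39, Fli1 by 1.86 and Tal1 by 1.67. The day 0 mean there is 1 array. From day 2 to day 4, 3 factors were called, all lower (23.4%): Etv2 at -1.13 (limma adjusted p = 0.00667), Tal1 at -1.15 (0.00115) and Fli1 at -1.51 (0.023). Tal1 (0.94) and Fli1 (2.06) were higher from day 4 to day 5 (5.62%). From day 5 to day 6 Tal1 (2.01) and Fli1 (2.35) were higher and Etv2 lower (-0.95); 17% of genes were called. Etv2 (-1.15) and Gata2 (-0.87) were lower from day 6 to day 8 (12.6%), and Tal1 (-1.38) from day 8 to day 10 (2.65%). The steps of Tal1 to days 4, 6 and 10 were called without any 1 of the arrays they use. Its step to day 2 was called without either day 2 array, and the lone day 0 array could not be left out.

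Several of the other steps in that arm rested on single arrays. The Fli1 steps to and from day 2 were lost without Sox17 shRNA day 2 replicate 1 (adjusted p = 0.179 and 0.232), and the latter also without day 4 replicate 2 (0.142) or with the bioB term (0.0719). Its second probe set gave 0.64 (0.239) and -0.52 (0.184) for these steps, and 0.30 (0.571) from day 4 to day 5. Without Sox17 shRNA day 5 replicate 2, the steps from day 4 to day 5 were lost for Tal1 (0.201) and Fli1 (0.177), and Tal1 was also lost without day 4 replicate 1 (0.0709). Without day 5 replicate 1, the step of Fli1 to day 6 had an adjusted p of 0.0523. The Etv2 steps were lost without day 2 replicate 1 (to day 4, 0.0667), without either day 5 array or day 6 replicate 2 (to day 6, 0.117, 0.0731 and 0.377), and without day 6 replicate 1 or day 8 replicate 2 (to day 8, 0.19 and 0.182). The Gata2 step to day 8 was lost without any 1 of its 4 arrays (0.0613 to 0.153).

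A step called in 1 arm and not in the other was not shown to differ between arms. The change of the arm difference between neighbouring days was called by limma for 0 of 7 factors at each of the 6 steps. All genes gave 0.293%, 0.632%, 0.0978%, 0.707%, 0.384% and 0.135% in order of days, and the factors with an unadjusted p below 0.05 numbered 3, 3, 0, 2, 0 and 1. The lowest adjusted p among the factors was that of Lmo2 from day 5 to day 6, where the arm difference changed by -1.90 (SE 0.44, adjusted p = 0.0591). Lmo2 rose by 1.88 in the control arm over this step and differed by -0.02 in the Sox17 shRNA arm. With any of the replicate blocks described at the end, this change of the arm difference had a limma adjusted p below 0.05. The step had an adjusted p of 0.0336 with the bioB term, 0.0472 without the 2 arrays of high actin difference and 0.0158 without Sox17 shRNA day 5 replicate 2.

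The comparison between arms asks how the factors differ when Sox17 is targeted. At day 0 limma called 0 of 7 factors (1.89% of all genes), and 0 at an unadjusted p below 0.05. At day 2 it called 3, all higher in the Sox17 shRNA arm (2.54%): Etv2, Tal1 and Fli1. At day 4 the count was 0 (5.14%), with 2 at an unadjusted p below 0.05. With a replicate block within day, described at the end, the count at day 4 was above 0. At day 5 Etv2 and Lmo2 were higher (9.39%), at day 6 Tal1 and Gata2 (5.2%), and at day 8 Tal1 (4.82%). At day 10 Tal1 was higher and Lmo2 lower (10%). Over days 4 to 10 on average Tal1 and Gata2 were higher, a count near the share of all genes called (27%). The median difference of the 7 factors was 1.18 at day 2, against 0.00 over all genes, and 0.58 at day 5, and at most 0.30 on the other days.

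**Figure D4:**
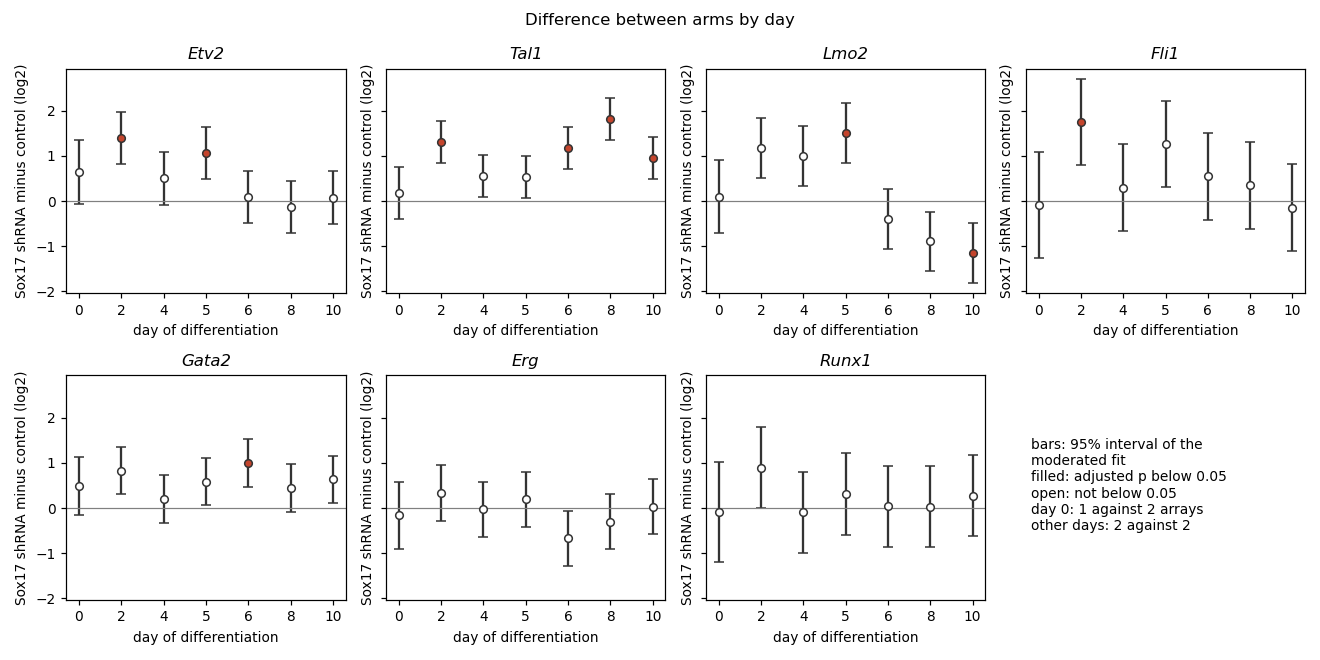
Sox17 shRNA minus control (log2) for each factor against day, with 95% intervals of the moderated fit; filled points have a limma adjusted p below 0.05. Tal1 differences were 0.18 to 1.81 and all above 0, and those of Lmo2 ran from 1.51 at day 5 to -1.15 at day 10.

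Sox17 was already 2.26 above day 0 in the control arm at day 2 (limma adjusted p = 0.0386), before its larger rise to day 4. Between arms Sox17 was not called at day 2 (-1.29, adjusted p = 0.547). It read 5.12 and 4.48 with Sox17 shRNA and 6.01 and 6.17 in the control arm. The Sox17 shRNA replicates of Etv2 at day 2 read 9.73 and 9.47, both above the control replicates at 8.21 and 8.21. The difference was 1.39 (SE 0.28, adjusted p = 0.0102). At day 5 they read 8.38 and 8.40 against 7.16 and 7.50, a difference of 1.06 (SE 0.28, adjusted p = 0.0222). Each call was lost without any 1 of its 4 arrays, with adjusted p from 0.0559 to 0.0992 at day 2 and from 0.0544 to 0.201 at day 5. Markers of pluripotent cells were also higher at day 5, with a list median of 0.58, and their part in this difference was not tested. On other days Etv2 read 6.90 (day 0), 8.17 and 8.78 (day 4), 7.87 and 7.02 (day 6), 6.80 and 5.79 (day 8), and 5.68 and 5.99 (day 10) in the Sox17 shRNA arm. The arms overlapped from day 6 on.

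Tal1 was called on more days than any other of the 7 factors. In the Sox17 shRNA arm it read 4.67 (day 0), 6.64 and 6.03 (day 2), 5.21 and 5.17 (day 4), 5.81 and 6.45 (day 5), 8.09 and 8.19 (day 6), 7.94 and 7.50 (day 8), and 6.60 and 6.08 (day 10). On every day from day 2 both arrays lay above both control arrays. The difference was 1.30 at day 2 (SE 0.22, limma adjusted p = 0.00365), 1.18 at day 6 (adjusted p = 0.00313), 1.81 at day 8 (adjusted p = 3.42e-05) and 0.96 at day 10 (adjusted p = 0.00821). Its mean over days 4 to 10 was 1.01 (SE 0.10, adjusted p = 6.95e-07), a fold of 2.01. The calls at days 6 and 8 and on average held without any 1 array. That at day 2 was lost without control replicate 1 (0.0805) or Sox17 shRNA replicate 1 (0.0658). That at day 10 was lost without either control array (0.0637 and 0.0653) or Sox17 shRNA replicate 1 (0.142). At day 4 the difference was 0.53 within arrays of high bioB signal and 0.57 within those of low signal, and was not called (0.55, adjusted p = 0.18).

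Gata2 was higher on average and less sharply so on single days. Its Sox17 shRNA replicates read 6.60 (day 0), 7.63 and 7.05 (day 2), 6.53 and 7.11 (day 4), 7.26 and 7.68 (day 5), 8.20 and 8.11 (day 6), 7.37 and 7.20 (day 8), and 7.78 and 6.91 (day 10). They lay above both control replicates on every day except day 4, where the arms overlapped, and day 0 also had its only array above both. The mean difference over days 4 to 10 was 0.57 (SE 0.11, limma adjusted p = 7.84e-04), and held without any 1 array. The difference was already 0.48 at day 0, with 1 array in the Sox17 shRNA arm, and 0.83 at day 2 (adjusted p = 0.0973). At day 6 it was 1.0 (SE 0.25, adjusted p = 0.0236), lost without any 1 of the 4 arrays (adjusted p 0.0684 to 0.155). The second probe set, 1428816_a_at, gave 0.68 on average (adjusted p = 3.04e-04), and was also called at day 2 (1.26, adjusted p = 0.019) and day 10 (0.94, adjusted p = 0.0339).

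Lmo2 changed sides. Its Sox17 shRNA replicates read 5.73 (day 0), 8.51 and 7.73 (day 2), 7.43 and 8.09 (day 4), 8.48 and 7.80 (day 5), 7.93 and 8.32 (day 6), 8.34 and 7.46 (day 8), and 7.39 and 6.80 (day 10). Both lay above the control arrays on days 2, 4 and 5 and below them on days 6, 8 and 10. The differences were 1.18 (limma adjusted p = 0.0543), 1.0 (0.0755) and 1.51 (0.00594), then -0.39 (0.636), -0.89 (0.134) and -1.15 (0.0252). The part of the pluripotent markers, higher at day 5, in the difference of that day was not tested. The call at day 5 was lost without control replicate 2 (0.0564) or Sox17 shRNA replicate 1 (0.117), and that at day 10 without either control array (0.143 and 0.132) or Sox17 shRNA replicate 2 (0.217). A moderated F test with 5 degrees of freedom of whether the differences of days 4 to 10 departed from that of day 2 gave an adjusted p of 0.00114 for Lmo2, and called 1 of 7 factors (6% of genes). That call held without any 1 array (adjusted p 3.90e-04 to 0.00456). For Tal1 and Gata2, called on average over days 4 to 10, this F test gave adjusted p of 0.0771 and 0.728. A departure from their day 2 difference was thus not called.

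Fli1 was called at day 2 alone. Its Sox17 shRNA replicates read 3.36 (day 0), 5.74 and 4.71 (day 2), 3.86 and 3.58 (day 4), 4.86 and 6.69 (day 5), 8.64 and 7.62 (day 6), 7.91 and 7.16 (day 8), and 7.57 and 6.66 (day 10). The replicates lay 1.03 apart at day 2 and 1.83 at day 5, wide beside the control arm. The day 2 difference was 1.75 (SE 0.46, limma adjusted p = 0.0483), a fold of 3.37. It was lost without any 1 of the 4 arrays (adjusted p 0.0673 to 0.391), with no filter (0.0508), with no intensity trend (0.0542) and with robust moderation (0.0611), and the second probe set gave 0.71 (0.241). Without the 2 arrays of high actin difference, the mean over days 4 to 10 was called for Fli1 (0.59, adjusted p = 0.0439) and Etv2 (0.34, 0.0222), against 0.46 (0.107) and 0.32 (0.065) with them.

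Erg and Runx1 had no called difference between arms. Erg in the Sox17 shRNA arm read 4.05 (day 0), 4.56 and 4.38 (day 2), 4.28 and 3.94 (day 4), 4.11 and 4.60 (day 5), 5.60 and 4.77 (day 6), 5.44 and 4.66 (day 8), and 5.25 and 4.38 (day 10). At day 6 both lay below the control replicates, by -0.67 on average (SE 0.29, adjusted p = 0.239, limma). Runx1 by 1452530_a_at differed by 0.90 at day 2 (adjusted p = 0.369), where the control replicates were 1.41 apart. By 1422864_at its Sox17 shRNA replicates read 4.22 (day 0), 3.88 and 4.04 (day 2), 4.59 and 4.10 (day 4), 4.25 and 4.96 (day 5), 5.48 and 5.96 (day 6), 5.52 and 6.79 (day 8), and 5.20 and 6.26 (day 10). For this set the arms overlapped at days 8 and 10, and the mean difference over days 4 to 10 was 0.27 (adjusted p = 0.237). At day 6 both lay above the control replicates, by 0.86 on average (limma adjusted p = 0.209). The sets 1422865_at (0.84, 0.344), 1440878_at (0.85, 0.257) and 1427650_a_at (0.43, 0.298) were also higher then, without a call. The sets 1452530_a_at (0.04, 0.989) and 1452531_at (-0.23, 0.39) did not share this.

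Within the Sox17 shRNA arm, replicate 2 exceeded replicate 1 at day 8 by 1.28, 1.61 and 1.10 for the Runx1 sets 1422864_at, 1422865_at and 1440878_at, and at day 10 by 1.05, 1.51 and 1.19. In the same arrays Fli1, Erg and Tal1 were lower in replicate 2, by -0.75, -0.79 and -0.44 at day 8 and by -0.91, -0.87 and -0.52 at day 10. Gata2 was lower as well, by -0.17 and -0.88. The gaps of the Runx1 sets named thus had the opposite sign to those of these factors. In the control arm those gaps were at most 0.31 in size for all sets named. The remaining Runx1 sets had smaller gaps in the Sox17 shRNA arm at days 8 and 10. They were 0.002 and 0.06 for 1452530_a_at, 0.065 and 0.065 for 1452531_at, and 0.38 and 0.37 for 1427650_a_at. With 2 arrays a group these gaps are a description.

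Over the 14 group means, the factors formed no single course. Pearson's r was 0.88 for Tal1 with Gata2 and for Fli1 with Erg, 0.84 for Tal1 with Fli1 and 0.74 for Lmo2 with Fli1. Etv2 ranged from -0.39 with Fli1 to 0.32 with Runx1. These means share arrays and the bioB split, so the values are descriptions. The genes most like each factor over all genes tested were Rpl7l1 (0.95), Adk and Polr2d for Etv2, Igsf11 (0.91), Tmem158 and Chsy3 for Tal1, and Pde3b (0.96), Fgf13 and Usp6nl for Lmo2. They were Ctla2a (0.96), Lama4 and Ctla2b for Fli1, Birc6 (0.90), Exoc8 and B3gnt5 for Gata2, Hapln1 (0.94), Ctla2b and Acta1 for Erg, and Stac3 (0.92), 9930104L06Rik and Trim45 for Runx1. Ctla2b was thus shared by Fli1 and Erg.

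Genes of early mesoderm and of Bmp signalling were also measured, and whether they act on these factors was not tested. Of 18 such genes, 15 were higher and 0 lower in the control arm at day 4 against day 0. Their median was 1.78 against -0.06 for all genes, of which 46.1% were called. At day 2, 7 were higher and 1 lower, with a median of 0.24 (32.1% of all genes were called). Mixl1 (5.54) and Eomes (5.09), primitive streak factors, and Pdgfra (4.59), a receptor of early mesoderm, had the largest changes. Between arms 1 was higher and 3 lower at day 4 (5.14% of all genes were called). Evx1, a posterior streak factor, was 0.91 higher (limma adjusted p = 0.0225). Pdgfra (-1.61, 0.0377) and Mesp1 (-1.29, 0.0251), a factor of cardiovascular mesoderm, were lower. At day 5, 5 were higher and 2 lower (9.39% of all genes were called). Mixl1 was 4.13 higher (SE 0.37, adjusted p = 4.60e-06) and Evx1 2.48 higher (3.74e-06), and Foxc2 was lower (-2.39, 2.19e-04).

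Of 14 other Ets factors measured, 0 were called by limma between arms at day 2 (1 at an unadjusted p below 0.05). At day 4, 1 was higher, Etv6 by 0.67 (5.14% of all genes were called), and at day 5, 4 were higher (9.39%). Elk3 (1.59, limma adjusted p = 0.00755), Etv5 (1.01) and Etv4 (1.0) had the largest differences of those. In the control arm at day 4 against day 0, 4 were higher and 4 lower, near the 46.1% of all genes called, with Ets1 at 3.21, Elf1 at 2.05 and Etv5 at -1.34. Among 16 partners and cofactors of Tal1, Lmo2, Gata2 and Runx1, 0 were called between arms at days 2 and 4 (2 and 3 at an unadjusted p below 0.05, limma), and 1 was higher at day 5: Cbfb, the subunit that pairs with Runx proteins (0.58, adjusted p = 0.00871). At control day 4, 8 of them were higher and 1 lower than at day 0, also near that share, led by Tcf12 (2.21), an E protein that pairs with Tal1, Ssbp3 (1.90) and Ldb1 (-1.44), the adaptor of Lmo2.

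The endothelial genes called between the arms from day 4 on, few on most days, were lower in the Sox17 shRNA arm. Erythroid genes called were higher. Of 21 endothelial genes, Sox18 was higher at day 2 (1.77, limma adjusted p = 0.0353). Kdr, the Vegf receptor of mesoderm and endothelium, was lower at day 4 (-1.70, 0.0256), and Mef2c at day 5 (-1.66, 8.30e-04). Of all genes, 2.54%, 5.14% and 9.39% were called on these days, so 1 endothelial gene a day does not set the list apart. In the control arm at day 4 against day 0, 5 of the list were higher and 5 lower (46.1% of all genes were called). Kdr was 2.93 above day 0, and Pecam1 and Nos3 were lower (-3.85 and -1.80). Over the same days 9 of 12 markers of pluripotent cells were lower and 0 higher, and their part in these changes was not tested. At day 6, 5 were lower and 0 higher (5.2% of all genes were called). The list median was -0.80 against 0.03 for all genes. The 5, named after their values were seen, were Mef2c, Emcn, Icam2, Cd34 and Flt4. The summed level of the list at day 6 was 12.2 and 12.3 in control arrays and 11.3 and 11.6 in the Sox17 shRNA arm. At day 8, 2 were lower (4.82% of all genes were called), and at day 10, 3 (10%). The summed levels at day 8 met, at 12.2 in both control arrays and 11.4 and 12.2 with Sox17 shRNA.

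Of 14 measured genes of haematopoietic progenitors, 3 were higher at day 6, 6 higher and 1 lower at day 8, and 3 higher at day 10. Their medians on these days were 0.27, 0.36 and 0.07. Of all genes, 5.2%, 4.82% and 10% were called at days 6, 8 and 10. Of 8 erythroid genes measured, from a list of 14, 2 were higher at day 5 (9.39% of all genes were called). They were Hbb-y (4.67, SE 1.22, limma adjusted p = 0.0227) and Tfrc (0.56, 0.0288), both named after their values were seen. Summed erythroid levels at day 5 were 11.4 and 13.0 with Sox17 shRNA, far apart beside 10.9 and 11.1 in control arrays. The list medians were 0.52 at day 4 and 0.46 at day 5. limma called 0 at day 6 (1 at an unadjusted p below 0.05), 4 were higher at day 8 and 3 at day 10, with medians of 2.07 and 1.32. The 4 at day 8, named after their values were seen, were Klf1, Alas2, Epor and Slc4a1. Summed erythroid levels at day 8 were 12.4 and 12.7 in control arrays, and 14.5 and 14.8 with Sox17 shRNA. Without the 2 arrays of high actin difference the counts were 5 lower for endothelial genes at day 6, and 2, 6 and 4 higher for progenitor genes and 0, 5 and 4 higher for erythroid genes at days 6, 8 and 10, with 1 progenitor gene lower at days 8 and 10 and 1 erythroid gene lower at day 10. Cardiac muscle genes were lower in 12 of 12 on each of days 6, 8 and 10. The part of these cell types in the differences of the factors was not tested.

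**Figure D5:**
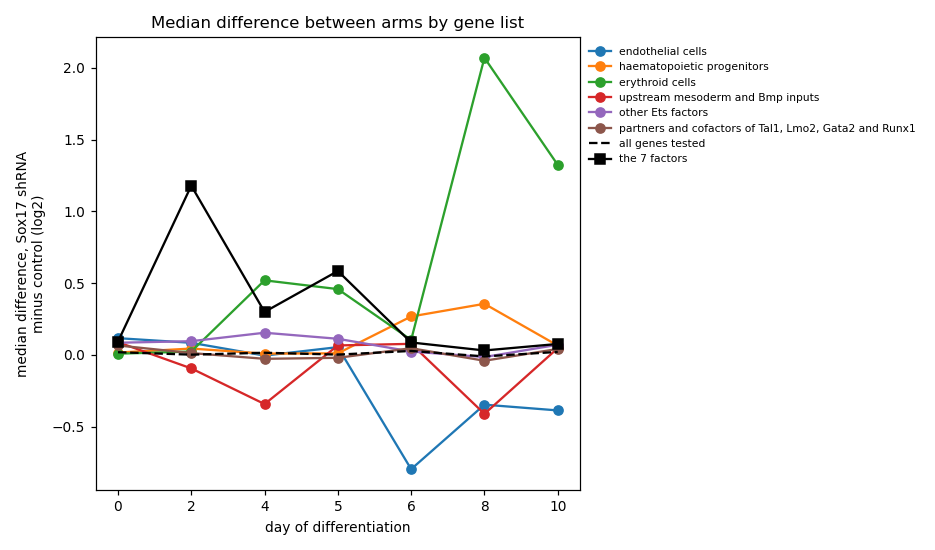
Median of Sox17 shRNA minus control (log2) against day for 6 gene lists, for the 7 factors (squares) and for all genes tested (dashed). The factors were highest at day 2 (1.18), the endothelial list was lowest at day 6 (-0.80) and the erythroid list was highest at day 8 (2.07).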

How the data were processed

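RNA was measured on Affymetrix mouse arrays in 27 samples of 14 groups. The deposited values are log2 expression per probe set, made by the authors with RMA per the submitters' processing notes; its version is not given in the sources used here. RMA gives all arrays 1 distribution, so differences are relative to other genes, and low levels understate folds. Of 45101 probe sets, 34958 had 1 gene symbol in the platform annotation, 932 several and 9211 none. Sets that exceeded the overall median (5.53) on 2 or more arrays were kept (23536), then the highest mean per gene.

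limma 3.58.1 (R 4.3.3) fitted 1 mean per group to all arrays (13 residual degrees of freedom, prior 4.68, intensity trend), with adjustment over 13297 genes. A lone array was assumed to vary like the others. The p-values are two-sided and measure the spread between the labels' biological replicates. Alternatives were other filters, scalings, variance models, blocks, a bioB term, single arrays left out and other probe sets. The members and gene lists were chosen with earlier results of these data known. Named genes were the 7 factors, the 3 genes most correlated with each, and up to 3 called genes per pathway list with the largest differences (arms at days 2, 4 and 5, control day 4). Motifs were searched in 250 bases before starts. The steps were tested on simulated data with independent noise for each gene and array. Those data held no deviations shared between arrays and no bioB split within a group, so the test does not cover these. The number of arrays limits the precision.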

Additional observations from a re-analysis of the deposited data

Results flagged for a closer look

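The difference of Lmo2 between arms was not the same across days. It was 1.18 at day 2 and 1.51 at day 5, but -1.15 at day 10, and the test of days 4 to 10 against day 2 gave a limma adjusted p of 0.00114. The cause was not tested.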

How the results depend on the processing

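Of 59 called values of single factors, all kept their direction and call with the replicate block within day (for example Lmo2 at day 5, adjusted p = 0.00181), with a block of the number alone and with arm by number as a random block. Same-numbered arrays deviated together with correlations of 0.0986 to 0.683 by day. They exceeded 0.1 on 5 of 6 days and missed it at day 10, and the rule for pairing asked for every day, so the numbers were not taken to pair samples. The highest, 0.683, was that of day 4, where replicate 1 of both arms had high bioB signal and replicate 2 of both had low signal. Counts that moved by over 1.5 times, or from 0, are given for the block within day: 1 factor at day 4, 2 at day 8, 5 for the Sox17 shRNA step from day 5 to day 6, 2 for the departure from day 2, and 1 for the change of the arm difference from day 5 to day 6, also 1 with either other block (Lmo2, adjusted p 0.0149, 0.0421 and 0.0426). The bioB term gave 1 at day 4, 1 at control day 5 against day 0, 5 for that Sox17 shRNA step, 2 for the departure and 1 for the change, and smaller shifts to 4, 4 and 3 at control days 6, 8 and 10 and to 2 for the Sox17 shRNA step from day 2 to day 4. Without the 2 arrays of high actin difference, 4 were called on average, 2 departed from day 2 and 1 changed from day 5 to day 6. Only the arrays of the day gave 1 at day 0 and 5 at day 2. No filter, or subtracting array medians, gave 1 for the control step from day 6 to day 8. No filter also gave 2 at day 2, 3 for the control step from day 5 to day 6, and 5 and 4 at control days 6 and 8.

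Leaving out single arrays gave counts of 0 to 1 at days 2, 4 and 5, 1 at day 6, 1 to 2 at day 8, 0 to 2 at day 10, 2 to 4 on average, 1 to 2 for the departure and 0 to 1 for the change from day 5 to day 6. For control days against day 0 they were 1 to 2 at day 4 and 3 to 4 at day 5. The control steps gave 0 to 1 from day 4 to day 5 and from day 6 to day 8. In the Sox17 shRNA arm they were 1 to 4 from day 2 to day 4, 0 to 3 to day 5, 1 to 3 to day 6 and 0 to 1 to day 8. Of 280 such values of single factors, 65 lost the call and 0 reversed. A lone array left in a group was assumed to vary like the others, and fewer arrays also weaken the test.

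Values that reversed were Erg at control day 8 against day 0 with no filter (-0.21), and Runx1 at control day 5 against day 0, at 0.12 with the bioB term and at 0.084, 0.34 and 0.22 by the sets 1422864_at, 1422865_at and 1440878_at. The cause was not tested. The Erg set used and the 3 late Runx1 sets exceeded the overall median on only 3 to 6 arrays. The list counts without the 2 arrays were chosen after seeing the data.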
